A study of Homo sapiens with 2 samples.

Results

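The 45 genes described here encode the machinery that licenses replication origins and copies DNA at the fork, with enzymes of nucleotide supply and 3 E2F transcription factors. They were taken by symbol from the deposited gene table, and each of the 45 had 1 row among the 23321 genes of that table. Total RNA was sequenced from the established human gastric adenocarcinoma line AGS, grown in serum-containing medium and stably transfected with plasmid DNA. The AGS-ctrl library came from cells with a negative control plasmid, whose genotype is labelled WT. The AGS-GGT7 library came from cells with a plasmid for ectopic expression of GGT7, which belongs to the gamma-glutamyltransferases. Both libraries were taken at 2 weeks, and each group held 1 library. The promoter of the plasmid, and whether the transfected cells were a pool or 1 clone, are not stated in the labels. With 1 library per group no difference has a replicate check and no test was run; the 95% intervals below are exact, were computed on the count ratio, and cover counting error only.

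The libraries held 13482913 counts for AGS-ctrl and 10289206 for AGS-GGT7. GGT7 itself stood at 90 counts in AGS-ctrl and 470 in AGS-GGT7, so the labels of the libraries matched the gene they name. Of the epithelial markers, KRT8 and KRT18 were abundant in both libraries, while EPCAM was at 2.29 and 1.57 FPKM and CDH1 below 1 FPKM in both. The summed level of the 5 epithelial markers in the table was 186 FPKM in AGS-ctrl and 168 in AGS-GGT7. The 4 fibroblast markers in the table summed to 7.74 and 5.95 FPKM, the 3 endothelial markers to 2.25 and 2.04, and the 4 immune markers to 1.42 and 6.51. CD68 made up most of the immune sum, while the leukocyte marker PTPRC had 5 counts in each library and LYZ had 2 and 0. The part of these marker levels in the results below was not tested.

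Replication starts from origins that are licensed in G1. The origin recognition complex, CDC6 and CDT1 load the MCM2 to MCM7 ring on DNA, geminin (GMNN) blocks CDT1 once S phase has begun, and CDC45 and the GINS complex turn the loaded ring into the active helicase. DNA polymerase alpha with primase then lays down primers, polymerases epsilon and delta extend them, RFC loads the PCNA clamp, RPA covers single-stranded DNA, and FEN1 and LIG1 join the Okazaki fragments. Many of these genes are textbook targets of the E2F factors, which connect the cyclin and RB pathway to S phase entry, and proliferating cancer lines express them at substantial levels.

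Levels of the replication genes were close in both libraries. FPKM divides the fragments of a gene by its length and by the depth of the library, and all 45 genes reached 1 FPKM, the minimum for a gene to be counted as measured. The smallest count of any of them in either library was 200. On the log2(FPKM + 1) scale 0 of the 45 were lower in AGS-GGT7 by 1.5-fold or more and 0 were higher by that much, where 4.97% and 3.9% of all 14215 measured genes were. Within 1.2-fold, a limit chosen after the data were seen, lay 37 of the 45 (82.2%), against 65.3% of all measured genes and 73.7% of the 7533 measured genes with at least 598 counts over both libraries, the sum of the least counted replication gene. The 45 genes had a median log2 difference of -0.02 and a median absolute difference of 0.11, beside a median of -0.03 and a median absolute difference of 0.18 over all measured genes. Among the 7533 deeper counted genes the median absolute difference was 0.15. Only 177 of these 7533 were 1.5-fold or more lower and 203 higher, so 0 and 0 of the 45 lie near that background. Together the 45 genes held 0.527% of the control counts and 0.521% of the GGT7 counts, a ratio of 0.989 (0.978 to 0.9998). That ratio takes the total counts as its scale, and the direction of the set depended on the scaling used. RNA of a whole culture was measured, so the share of cells in S phase and the RNA per cell cannot be told apart.

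The order of the levels was also shared. PCNA was highest in both libraries at 108 and 110 FPKM, followed by MCM3, and GINS3 and GINS4 were the lowest pair in both. Spearman's rho between the libraries was 0.97 over the 45 genes, which share both libraries and differ widely in level, so it is given as a description only. TK1 moved most among these ranks, from place 25 in the control to 34 in the GGT7 library, followed by POLD1, from 29 to 37.

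**Figure D1:**
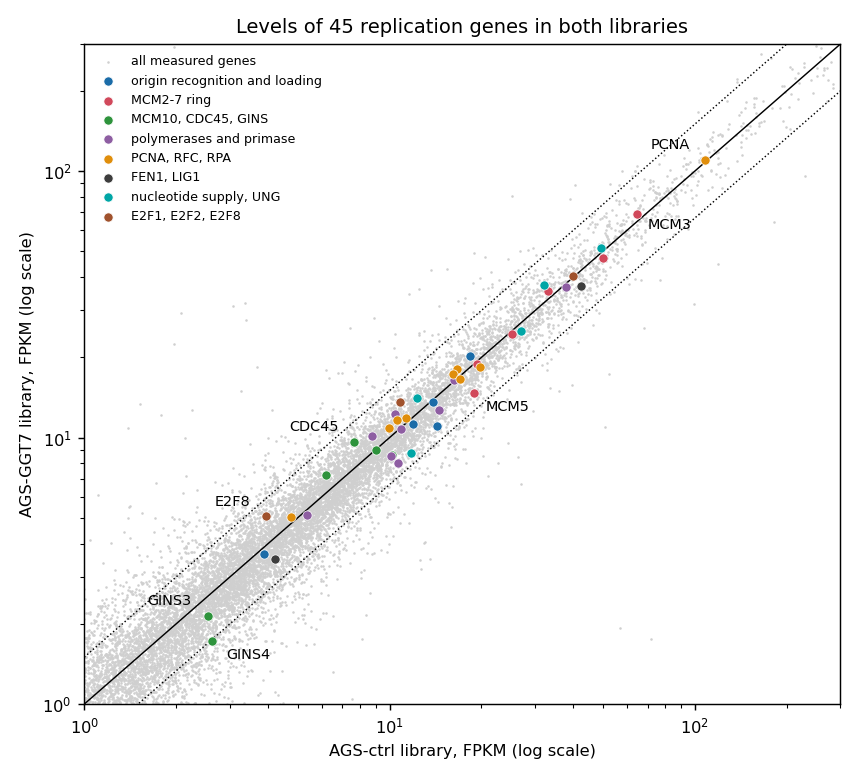
Each coloured point is 1 of the 45 replication genes, grouped by role, with its FPKM in the AGS-ctrl library on the x axis and in the AGS-GGT7 library on the y axis, both on a log scale from 1 FPKM; grey points are the other measured genes in that range. The solid line marks equal levels and the dotted lines 1.5-fold apart in FPKM, and the replication genes lie between the dotted lines except GINS4, which was 1.53-fold lower in FPKM.

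Counting error alone did not cover all of the small differences, in these genes as in other genes counted as deeply. The counting interval of the ratio lay below 1 for 13 of the 45 genes (28.9%) and above 1 for another 13 (28.9%). Of all measured genes 25.4% and 19.6% lay there, and of the deeper counted genes 32.9% and 26.3%. The shares of the 45 genes are thus near those of the deeper counted genes. For the remaining 19 the interval held 1. The log2 difference was below 0 for 24 genes and above 0 for 21, and 54.8% of all measured genes were below 0. On the log2(FPKM + 1) scale 5 genes (11.1%) were 1.2-fold or more lower and 3 (6.67%) higher, where 19.3% and 15.3% of all measured genes were. Of the 7533 deeper counted genes 1060 were lower and 919 higher by that much. The 5 lower ones were GINS4, TK1, POLD1, ORC1 and MCM5, from 5 different roles, and the 3 higher ones CDC45, E2F2 and E2F8. LIG1, 1.201-fold lower in plain FPKM, was inside the 1.2-fold limit on the log2(FPKM + 1) scale.

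Promoter sequence is shown because E2F control is the property most often ascribed to this set. Many of the genes are known E2F targets, so a high share of E2F words among them is no independent finding. It also does not bear on the difference between the libraries. RefSeq promoter windows on GRCh38.p14, from 250 bases before to 50 after a start, were at hand for 38 of the 45 genes. The E2F words TTTGGCGC, TTTCCCGC, TTTCGCGC and TTTGCCGC were searched on both strands, and overlapping words on opposite strands were each allowed. At least 1 word was found in 21 of the 38 genes (55.3%), against 586 of 8513 measured genes with a window (6.88%) and 3.31% of all 35116 windows. CCAAT on either strand, the core of the NF-Y motif, was in 24 of the 38 (63.2%), against 43.9% of those measured genes and 34.6% of all windows. A match is a run of letters and not a shown binding site. The stretches below lie upstream of the start, are written 5′ to 3′ along the gene, and carry the E2F words in capitals.
CDT1: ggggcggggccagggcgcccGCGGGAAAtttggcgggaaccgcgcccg
MCM6: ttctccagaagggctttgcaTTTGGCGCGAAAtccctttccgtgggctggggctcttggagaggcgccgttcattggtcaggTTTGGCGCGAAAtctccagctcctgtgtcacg
GINS2: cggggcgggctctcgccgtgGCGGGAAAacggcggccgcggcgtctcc
POLE: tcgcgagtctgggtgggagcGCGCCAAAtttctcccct
PCNA: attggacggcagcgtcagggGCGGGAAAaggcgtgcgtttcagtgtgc
LIG1: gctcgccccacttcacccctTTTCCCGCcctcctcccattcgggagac
TYMS: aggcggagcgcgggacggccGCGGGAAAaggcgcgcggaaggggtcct
E2F1: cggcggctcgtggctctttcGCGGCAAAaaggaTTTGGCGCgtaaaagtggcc
E2F2: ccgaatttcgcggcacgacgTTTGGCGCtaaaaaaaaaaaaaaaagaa
These stretches come from 1 or 2 genes of each role, with the higher and the lower side of the comparison both present. They lie at chr16:88803734-88803781 (plus strand) for CDT1, chr2:135876502-135876615 (minus strand) for MCM6, chr16:85688958-85689005 (minus strand) for GINS2, chr12:132687343-132687380 (minus strand) for POLE and chr20:5126654-5126701 (minus strand) for PCNA. Those of LIG1, TYMS, E2F1 and E2F2 lie at chr19:48170431-48170478 (minus strand), chr18:657594-657641 (plus strand), chr20:33686386-33686438 (minus strand) and chr1:23531248-23531295 (minus strand). The MCM6 stretch holds the same 12-letter run, TTTGGCGCGAAA, at 2 places, and each of them is a pair of words overlapping on opposite strands.

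Genes with and without an E2F word lay on both sides of the control. The 21 genes with a word had a median log2 difference of -0.04, from -0.22 in GINS2 to 0.30 in E2F2. Of them 13 were below 0, beside 54.8% of all measured genes. The 17 genes without one had a median of 0.06, from -0.38 in TK1 to 0.30 in CDC45, with 7 below 0. CDC6, MCM7 and GINS1, with a word, and PRIM2, without one, changed side with the scaling, so these counts are not stable. MCM4, MCM5, GINS4, POLD3, RPA2, RPA3 and E2F8 were not part of this count.

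Origin recognition and loading genes had a median log2 difference of -0.07 over 5 genes, of which 4 were below 0, beside 54.8% of all measured genes. ORC1, the largest subunit of the origin recognition complex and the one that is degraded and made anew in each cycle, had 763 counts in AGS-ctrl and 448 in AGS-GGT7. Its level was 14.4 FPKM in AGS-ctrl and 11.0 in AGS-GGT7, 1.30-fold lower (1.16 to 1.46). ORC6, the smallest subunit, was at 3.89 and 3.66 FPKM. CDC6, the loading ATPase that joins ORC at the origin, was nearly level, at 13.9 and 13.6 FPKM. CDT1, which brings the MCM ring to the origin, was the only gene of the 5 above the control, at 18.3 and 20.2 FPKM, 1.11-fold higher (1.01 to 1.22). GMNN, its inhibitor geminin, was at 11.9 and 11.2 FPKM, and its counting interval held 1. The ratio of CDT1 to GMNN does not depend on how the libraries are scaled, and it went from 1.53 in the control to 1.80 in the GGT7 library, a factor of 1.17 (1.01 to 1.37).

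The MCM2 to MCM7 ring, the loaded helicase, differed in a single subunit by more than 1.1-fold. MCM5 had 2356 counts in AGS-ctrl and 1396 in AGS-GGT7, with levels of 19.0 and 14.7 FPKM, 1.29-fold lower (1.205 to 1.38). MCM2 was at 49.97 and 47.4 FPKM, MCM4 at 19.3 and 18.9, and MCM7 at 25.2 and 24.5. MCM3 and MCM6 lay slightly above the control, MCM3 at 64.6 and 68.9 FPKM and MCM6 at 33.2 and 35.4. The counting interval held 1 for MCM4, MCM6 and MCM7, lay below 1 for MCM2 and MCM5 and above 1 for MCM3. In the cell the 6 proteins form a ring with 1 copy of each, while the mRNA levels of the subunits spanned more than 3-fold in the control. Relative to the other 5 subunits together, MCM5 was at 0.0987 of their summed FPKM in AGS-ctrl and 0.0755 in AGS-GGT7, and the counts gave a factor of 0.774 (0.722 to 0.831).

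Genes that turn the ring into a moving helicase went to both sides. CDC45 and MCM10, a factor that helps to open the origin, were above the control. CDC45 had 493 and 473 counts in libraries of unequal depth, which gave 7.65 FPKM in AGS-ctrl and 9.62 in AGS-GGT7, 1.26-fold higher (1.11 to 1.43). MCM10 was at 6.20 and 7.26 FPKM, 1.17-fold higher (1.05 to 1.30). The GINS genes, which encode the 4 subunits of a single complex, were level or below the control. GINS4 was the gene farthest from the control among all 45, with 400 and 200 counts and levels of 2.63 and 1.72 FPKM, 1.53-fold lower (1.28 to 1.82). On the log2(FPKM + 1) scale its difference was -0.41, rank 1428 from the lowest among 14215 measured genes. GINS2 was at 10.2 and 8.59 FPKM, GINS3 at 2.55 and 2.15, and GINS1 at 9.05 and 8.96, and the counting interval lay below 1 for the first 2 of these and held 1 for GINS1. CDC45 and GINS2 thus had opposite directions, with a ratio between them of 0.752 in AGS-ctrl and 1.12 in AGS-GGT7, a factor of 1.49 (1.22 to 1.81).

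Polymerase and primase genes had a median log2 difference of -0.05 over 9 genes, and the polymerase delta subunits POLD1 and POLD3 went to opposite sides. POLD1, the catalytic subunit of polymerase delta, had 1180 and 677 counts and was at 10.7 FPKM in AGS-ctrl and 8.03 in AGS-GGT7, 1.33-fold lower (1.21 to 1.46). Its partner POLD2 was at 16.2 and 16.5 FPKM. POLD3, which carries a PCNA-binding tail, was at 8.74 and 10.2 FPKM, 1.16-fold higher (1.06 to 1.27). The ratio of POLD3 to POLD1 was 0.819 in AGS-ctrl and 1.27 in AGS-GGT7, a factor of 1.55 (1.35 to 1.77). POLE, the catalytic subunit of polymerase epsilon, was at 10.1 and 8.54 FPKM, 1.18-fold lower (1.12 to 1.25), and its subunit POLE2 at 5.35 and 5.11. For polymerase alpha, the catalytic POLA1 was at 38.0 and 36.7 FPKM and the accessory subunit POLA2 at 14.5 and 12.7, 1.14-fold lower (1.06 to 1.24). Of the primase subunits, the catalytic PRIM1 was at 10.4 and 12.3 FPKM, 1.18-fold higher (1.05 to 1.33), and the large subunit PRIM2 at 10.9 and 10.8.

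The sliding clamp, its loader and the single-strand binding proteins spanned the narrowest range of log2 differences among the roles of 5 or more genes. PCNA had 2633 and 2050 counts, a ratio of 1.02 (0.963 to 1.08). Of the 9 genes of this role 7 were above 0, where 6430 of all 14215 measured genes were. The median log2 difference was 0.07, and the range ran from -0.09 in RFC3 to 0.13 in RFC2. The clamp loader genes were at 11.4 and 11.9 FPKM for RFC1, the large subunit, 10.6 and 11.6 for RFC2, 19.7 and 18.4 for RFC3, 16.7 and 18.1 for RFC4 and 9.94 and 10.8 for RFC5. RPA1, the main DNA-binding subunit of RPA, was at 16.1 and 17.3 FPKM, RPA2 at 17.1 and 16.6 and RPA3 at 4.74 and 5.03. The counting interval lay above 1 for RFC4 and RPA1 and held 1 for the other 7. Summed over the 9 genes, the counts gave a ratio of 1.04 (1.02 to 1.07).

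FEN1, the flap nuclease, and LIG1, the ligase that seals Okazaki fragments, were both below the control. FEN1 was at 42.4 and 36.9 FPKM, 1.15-fold lower (1.07 to 1.23). LIG1 was at 4.22 and 3.51 FPKM, 1.201-fold lower (1.06 to 1.37). FEN1 shares 166 exonic bases with TMEM258 on the other strand, and TMEM258 was itself lower, at 9.26 and 7.20 FPKM.

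Enzymes of deoxynucleotide supply differed in direction within the thymidylate branch. TK1, the cytosolic thymidine kinase that salvages thymidine, had 607 counts in AGS-ctrl and 347 in AGS-GGT7. It was at 11.7 and 8.78 FPKM, 1.33-fold lower (1.17 to 1.53). TYMS, which makes thymidylate by the other route, was at 32.0 and 37.5 FPKM, 1.17-fold higher (1.10 to 1.25), so the ratio of TYMS to TK1 went from 2.73 to 4.27, a factor of 1.56 (1.35 to 1.82). TYMS overlaps ENOSF1 on the other strand over 967 exonic bases, and whether the counting used strand is not stated; ENOSF1 was at 5.09 and 4.77 FPKM. RRM1, the large subunit of ribonucleotide reductase, was at 49.4 and 51.6 FPKM, and RRM2, its S phase small subunit, at 27.0 and 25.2. UNG, which removes uracil from DNA, was at 12.3 and 14.0 FPKM, 1.14-fold higher (1.04 to 1.25). With total counts as the scale, the counting interval excluded 1 for all 5 genes of this role. It did so narrowly for RRM1, with a lower end of 1.003, and for RRM2, with an upper end of 0.983. No ratio between the libraries passed 1.34-fold in either direction.

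E2F1, E2F2 and E2F8 were level or above the control, while E2F genes outside this set lay on both sides of it. E2F1, the activator that opens the S phase programme, was at 39.9 FPKM in AGS-ctrl and 40.3 in AGS-GGT7, a ratio of 1.01 (0.932 to 1.10). E2F2, another activator, had 839 and 801 counts and was at 10.8 and 13.6 FPKM, 1.25-fold higher (1.13 to 1.38). E2F8, a repressor that acts late in S phase, was at 3.93 and 5.06 FPKM, 1.29-fold higher (1.10 to 1.51). On the log2(FPKM + 1) scale E2F2 and E2F8 were both at 0.30, the highest values of the 45 genes together with CDC45, and E2F8 had rank 12363 from the lowest of the 14215 measured genes.

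**Figure D2:**
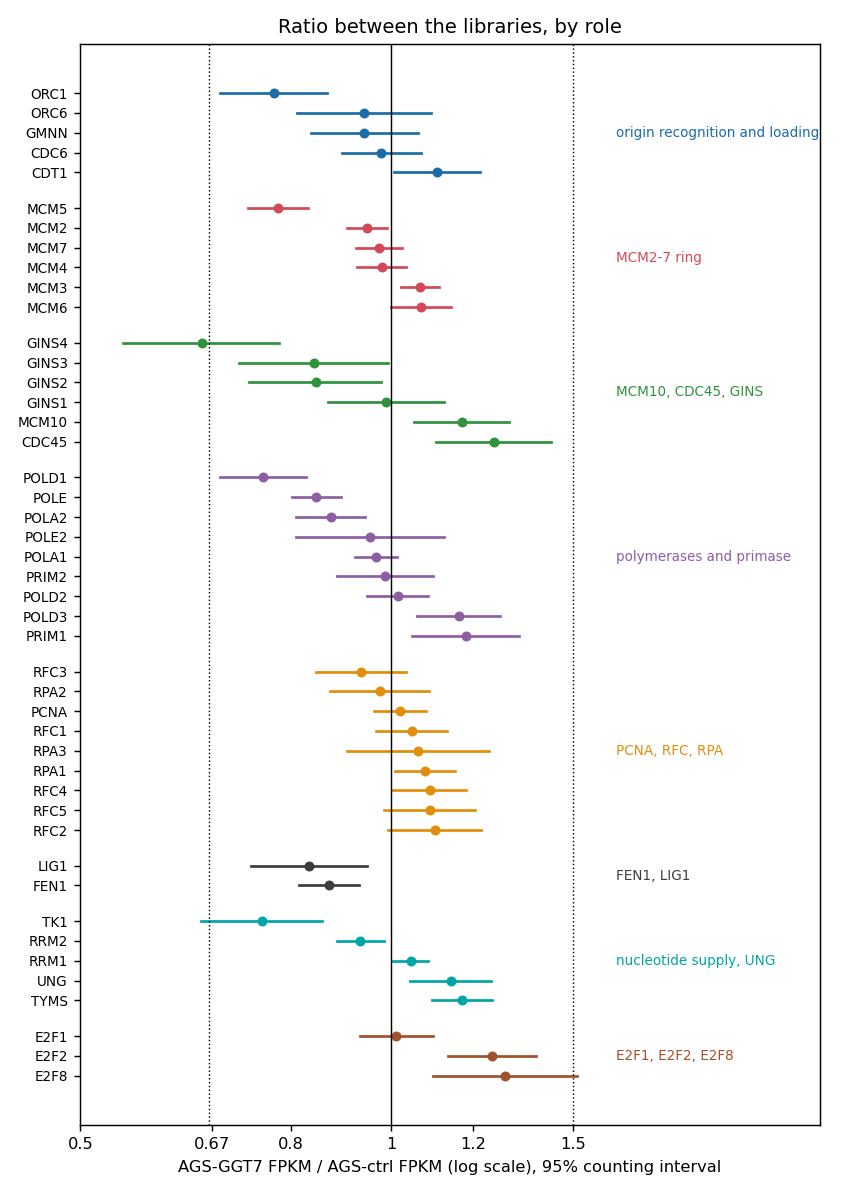
For each of the 45 genes, grouped by role, the point is the AGS-GGT7 FPKM divided by the AGS-ctrl FPKM on a log axis, and the bar is the exact 95% interval of the ratio of counts, which covers counting error only. The solid line marks a ratio of 1 and the dotted lines 1.5-fold; GINS4 is the only point past a dotted line, and the PCNA, RFC and RPA genes span the narrowest range among the roles of 5 or more genes.

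Further genes of the same pathway passed 1.5-fold about as often as genes in general. A further 69 replication, nucleotide, E2F and RB genes were all measured. On the log2(FPKM + 1) scale 3 of them were 1.5-fold or more lower (4.35%) and 2 higher (2.9%). The shares of all measured genes were 4.97% and 3.9%, so the 69 genes were near the background. The median log2 difference of the 69 was -0.10. The 3 lower ones were TICRR, SKP2 and RRM2B. In plain FPKM E2F6 also passed that limit, at 1.42 and 0.937 FPKM, 1.52-fold lower (1.17 to 1.98). TICRR, which with TOPBP1 helps CDC45 to join the ring, had 1786 and 772 counts and was at 12.1 and 6.84 FPKM, 1.77-fold lower (1.62 to 1.92). TOPBP1 was at 22.0 and 19.3 FPKM. SKP2, a ubiquitin ligase subunit whose substrates include CDT1, ORC1 and the CDK inhibitor p27, was at 22.1 and 12.9 FPKM, 1.72-fold lower (1.60 to 1.84). RRM2B, the p53-inducible small subunit of ribonucleotide reductase, was at 3.07 and 1.39 FPKM, 2.21-fold lower (1.82 to 2.69), while RRM2 was nearly level, and the ratio of RRM2B to RRM2 changed by a factor of 0.485 (0.395 to 0.592).

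The 2 higher ones were POLE3 and E2F3. POLE3, a histone-fold subunit of polymerase epsilon that also works in chromatin remodelling, had 414 and 791 counts and was at 9.22 and 23.1 FPKM, 2.50-fold higher (2.22 to 2.83). It thereby went opposite to POLE, and the ratio of POLE3 to POLE was 0.914 in AGS-ctrl and 2.70 in AGS-GGT7, a factor of 2.96 (2.59 to 3.38). E2F3, the third activator E2F, was at 3.20 and 7.29 FPKM, 2.28-fold higher (2.05 to 2.53), unlike E2F1. TICRR overlaps KIF7, which had 135 and 109 counts.

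Medians of the lists by function lay on both sides of that of all measured genes, -0.03. The remaining origin and MCM genes (ORC2 to ORC5, MCM8, MCM9 and MCMBP) had a median of -0.10 over 7 genes, from ORC5 at -0.20 to MCMBP at 0.04. Genes of the fork, its checkpoint and chromatin assembly had a median of -0.13 over 20 genes, from ATR at -0.28 to CHAF1B at 0.22, and 16 of the 20 (80.0%) were below 0, beside 54.8% of all measured genes. The firing factors had a median of -0.17 over 8, with DONSON, a replication initiation factor, highest at 0.33, and the genes of licensing turnover had -0.08 over 8, with CUL4B highest at 0.15. Other polymerase and Okazaki genes had a median of 0.09 over 7, with RNASEH2C lowest at -0.40, and other nucleotide genes 0.07 over 9. The other E2F, DP and RB genes had a median of 0.02 over 10, with E2F6 lowest at -0.32.

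Of the neighbouring cell cycle lists, the G1/S cyclins and kinases had a median of 0.01 over 11 measured genes, from CCNE1 at -0.17 to CDK6 at 0.98. CDK6, a kinase that inactivates RB, was at 18.8 and 38.1 FPKM, 2.02-fold higher (1.94 to 2.11), and CCND2, with 0 and 3 counts, was not measured. Mitotic genes, on a list of 25, had a median of -0.14, and 17 of them (68.0%) were below 0, beside 54.8% of all measured genes. The counting interval lay below 1 for 14 of the 25 (56.0%) and above 1 for 3 (12.0%), beside 25.4% and 19.6% of all measured genes and 32.9% and 26.3% of the deeper counted ones. In the same count the 45 replication genes had 28.9% on each side. KIF20A, a mitotic kinesin, was the mitotic gene farthest down, at 17.6 and 10.2 FPKM. Whether the replication and the mitotic lists differ was not tested, since there is 1 library per group.

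**Figure D3:**
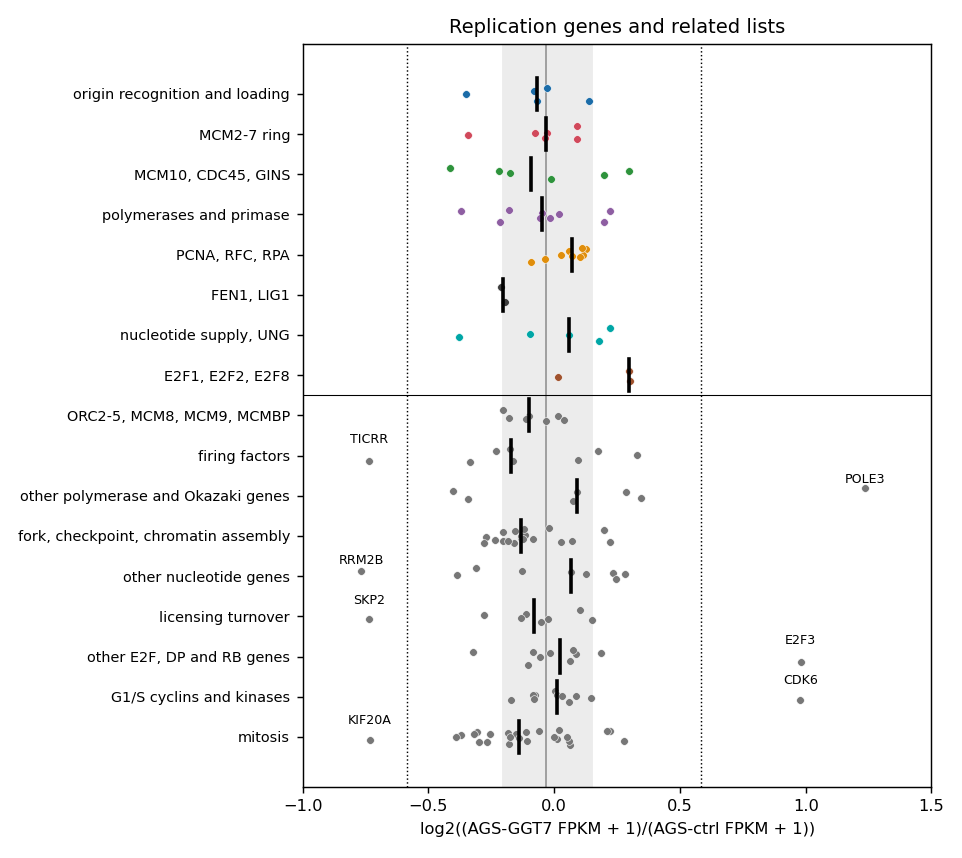
Each point is a gene at its log2((AGS-GGT7 FPKM + 1)/(AGS-ctrl FPKM + 1)), with the 45 replication genes by role above the horizontal line in colour and related lists below it in grey; black ticks are list medians, the grey band is the middle 50% of all measured genes around their median, and dotted lines mark 1.5-fold. None of the 45 genes lies past a dotted line, while TICRR, SKP2, RRM2B and KIF20A lie to the left and POLE3, E2F3 and CDK6 to the right.

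Ratios between a pair of genes of the same library do not depend on library scaling. For 22 pairs, chosen after their values were seen, the interval of the change excluded 1 for all but POLE with POLE2, a factor of 0.887 (0.745 to 1.06). Because of that choice, the number of intervals excluding 1 is no result about replication genes, and the pairs are given as descriptions. Within the ring, MCM3 to MCM5 changed by 1.37 (1.27 to 1.49) and MCM6 to MCM2 by 1.13 (1.04 to 1.22). RRM1 to RRM2 changed by 1.12 (1.05 to 1.19), and PRIM1 to PRIM2 by 1.197 (1.02 to 1.40). Across roles, CDC45 to MCM5 changed by 1.62 (1.40 to 1.87).

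**Figure D4:**
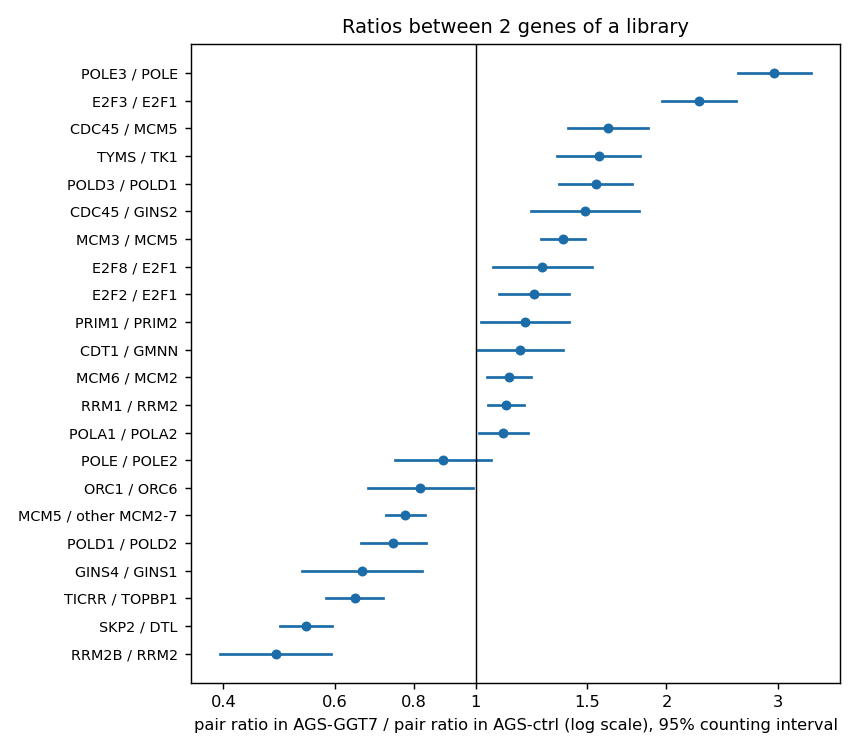
For each of 22 pairs of genes the point is the ratio of the first to the second gene in AGS-GGT7 divided by the same ratio in AGS-ctrl, on a log axis, from the counts, with the exact conditional 95% interval. POLE3 to POLE lies farthest right at 2.96 and RRM2B to RRM2 farthest left at 0.485, and only the interval of POLE to POLE2 crosses 1. The pairs were chosen after their values were seen.

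Base composition moved weakly with these differences. Over the 45 genes Spearman's rho between the GC content of the longest transcript and the log2 difference was -0.23, and over 7522 deeper counted genes it was -0.08. The 15 genes of highest GC content, 51.6% to 65.0%, had a median of -0.08 and the 15 of lowest, 39.1% to 45.3%, a median of 0.03. Other deeper counted genes of the same GC ranges had medians of -0.05 and -0.01. POLD1 lies at the top of the GC range, and with the GC trend over all measured genes removed, 0 genes passed 1.5-fold as before. Of the 45 genes 15 share at least 100 exonic bases with another annotated gene, among them GINS4, POLD1, POLD3, PRIM1 and RRM2. ORC6, PRIM2 and FEN1 share at least 30% of their longest transcript, at 95% identity or more, with a gene elsewhere. The values of all these genes are uncertain to the extent that the counting split or shared such reads.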

How the data were processed

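Total RNA was sequenced in 1 AGS-ctrl and 1 AGS-GGT7 library, grouped by the sample titles. Named in the submitters' processing notes, without roles, are GRCh38, edgeR, HISAT2 and StringTie 1.3.0; how reads were counted, on which annotation and strand, is not stated. The authors deposited counts and FPKM values, per the file headers. Listed here under the unit of estimated counts because 1 deposited line is broken, the authors' counts are whole numbers in all intact rows. Of 23378 lines, 2 were left out. Rows sharing a symbol were summed, which left 23321 genes.

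The difference is log2((GGT7 FPKM + 1)/(control FPKM + 1)); folds are plain FPKM ratios. A gene counts as measured if its larger FPKM reached 1. Intervals are exact conditional 95% intervals of count ratios (Clopper-Pearson; conditional odds ratio for pairs), and cover counting error only, reads being no independent molecules. Positions of overlapping genes and transcripts came from GENCODE 29, copies from BLAST 2.17.0 at 95% identity over 30% of a transcript. Each of the 45 genes is named, and of other lists those genes past 1.5-fold or otherwise at an end of the list, besides partners of a ratio. An item of 1 list is not reported here. Genes and lists were chosen with earlier results of these data known. Alternatives were pseudocounts of 0.1 and 5, other minimums, median-ratio, upper-quartile and TMM (edgeR 4.0.16) and DESeq2 1.42.0 scalings, 2-fold and 1.2-fold rules, and removal of the GC trend by lowess (span 0.3); the last 2 were added after the data were seen. The calculations, in Python 3.11.15 with scipy 1.17.1, were tested on simulated data.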

Additional observations from a re-analysis of the deposited data

How the results depend on the processing

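No paired analysis was possible because each group held 1 library, and no replicate could be left out. The count of genes at 1.5-fold, 0 lower and 0 higher, was the same under the pseudocounts, minimums and scalings tried and at 2-fold, while at 1.2-fold, a limit added after the data were seen, 5 were lower and 3 higher. The direction of the set depends on scaling: 24 of 45 genes were below 0 as deposited, 18 with upper-quartile scaling, 19 with the median ratio, 22 with DESeq2 size factors and 24 with TMM, and the median of the set lay between -0.02 and 0.02. The 6 genes that changed side, CDC6, MCM4, MCM7, GINS1, PRIM2 and RPA2, were all close to 0. Genes with a counting interval below 1 numbered 9 to 13 and above 1 numbered 13 to 16 under these scalings. At 5 FPKM or more 41 genes remained, and the median of the MCM10, CDC45 and GINS genes went from -0.09 to 0.09, since GINS3 and GINS4 were left out. Of the genes past 1.5-fold outside the 45, E2F3 (0.58), RRM2B (-0.34), TICRR (-0.53) and KIF20A (-0.57) came inside that limit with a pseudocount of 5. Counting error and the single library per group limit all values.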
